A study of Mus musculus with 43 samples.

Results

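The 9 genes described here are lymphoid organizer chemokines, their receptors and B cell genes. The chemokines are Cxcl13 and Ccl19, the receptors Cxcr5, Ccr7 and Gpr183, and the B cell genes Ms4a1, Cd79a, Cr2 and Fcer2a. Of these receptors Gpr183 binds an oxysterol. They were taken by symbol from the 24475 genes of the deposited count table. All 9 were found, and all 9 passed the filter on low counts that left 15979 genes for testing. They were measured by RNA sequencing of whole lung in 43 female mice of a hybrid 129S6/C57BL/6 background, in 7 groups. The design text gives their age as 8 to 12 weeks without saying when, and the age at sampling is not stated, so that age and length of exposure cannot be told apart. House dust mite extract (HDM) had been given intranasally 3 times a week, and 5 groups had 19 weeks of it: with itepekimab and dupilumab together (called the combination, n = 5), with itepekimab, which blocks IL-33, and an isotype antibody (anti-IL-33, n = 6), with dupilumab, which blocks IL-4Rα, and an isotype antibody (anti-IL-4Ra, n = 7), with isotype antibody alone (n = 7), and with no antibody (n = 7). The remaining groups had 11 weeks of HDM (n = 6) or saline (n = 5), both with no antibody. The mice used to assess the antibodies carried human sequence in place of their own Il4, Il33 and the ectodomain of Il4ra. The labels do not say whether the groups without antibody carried these alleles too, for how long saline was given, or at which of the antibody starts named in the design text (day -3, 4 weeks or 11 weeks) the treated mice began. The design text names exposures of 4, 15 or 19 weeks, and the labels, which give 11 or 19 weeks, were followed.

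In lymphoid tissue, stromal cells and follicular dendritic cells make CXCL13, which draws B cells bearing its receptor CXCR5 into follicles, while CCL19 draws T cells and mature dendritic cells bearing CCR7. GPR183 (EBI2) is a receptor for an oxysterol made by the enzymes CH25H and CYP7B1, and it positions activated B cells, T cells and dendritic cells at follicle borders. In chronically inflamed lung the same chemokines are known to organise clusters of B and T cells called inducible bronchus-associated lymphoid tissue. Ms4a1 encodes CD20, a surface protein of mature B cells that is lost in plasma cells, and Cd79a encodes a signalling chain of the B cell receptor. In mice Cr2 encodes the complement receptors CD21 and CD35 of B cells and follicular dendritic cells, and Fcer2a encodes CD23, the low-affinity IgE receptor, which IL-4 is known to induce on B cells.

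Libraries held 11.9 to 26.7 M counts (median 17.9 M). The lung label was matched by the epithelial genes, whose 7 members summed to at least 16523 CPM (counts per 1 M of library size, scaled by TMM factors) in every library. For each library the deviation of all genes from their means was regressed on transcript GC content, and the slope in log2 units per 10 percentage points is called the GC slope. It was above 0.75 in 10 libraries, of which 3 were combination, 2 anti-IL-33, 3 anti-IL-4Ra and 2 HDM 19 weeks libraries, and the group means were lowest at 11 weeks (-0.39) and in saline (-0.64). Only these 10 libraries are called steep. The lowest slope of all, -1.02 in combination replicate 2, was not counted as steep. The slope was computed from the same expression values as the tests. It ran from -0.88 to -0.37 in saline and from -0.41 to 0.89 at HDM 19 weeks. Between these groups slope and group can therefore hardly be told apart, and fits with the slope as a term carry that limit. Replicate numbers were not taken as pairs, and nothing states that the mice came from separate litters or cages, so p-values measure the spread between these lungs.

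Per kilobase of median transcript length, Fcer2a and Cd79a had the highest mean levels of the 9 genes in 5 of the 7 groups. In the combination and in saline Cd79a led and Cxcl13 came next, ahead of Fcer2a. At 11 weeks of HDM the mean levels were 70.6 ± 13.4 CPM per kb for Fcer2a, 55.7 ± 20.5 for Cd79a, 29.1 ± 14.5 for Cxcl13, 12.3 ± 5.4 for Cr2 and 10.6 ± 2.6 for Ms4a1 (SD, n = 6). Ccl19, Gpr183, Ccr7 and Cxcr5 followed at 7.87 ± 2.59, 7.25 ± 1.11, 6.27 ± 1.67 and 4.99 ± 1.81 CPM per kb. In that order Cr2 and Ms4a1, and the last 4 genes, lay within their spread between mice. The lengths were medians over all annotated transcripts of a gene, so the order between genes depends on which transcripts are annotated. They were 987 bases for Cr2 and 3014 for Ms4a1, while in CPM Ms4a1 averaged 31.8 and Cr2 12.1 at 11 weeks.

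**Figure D1:**
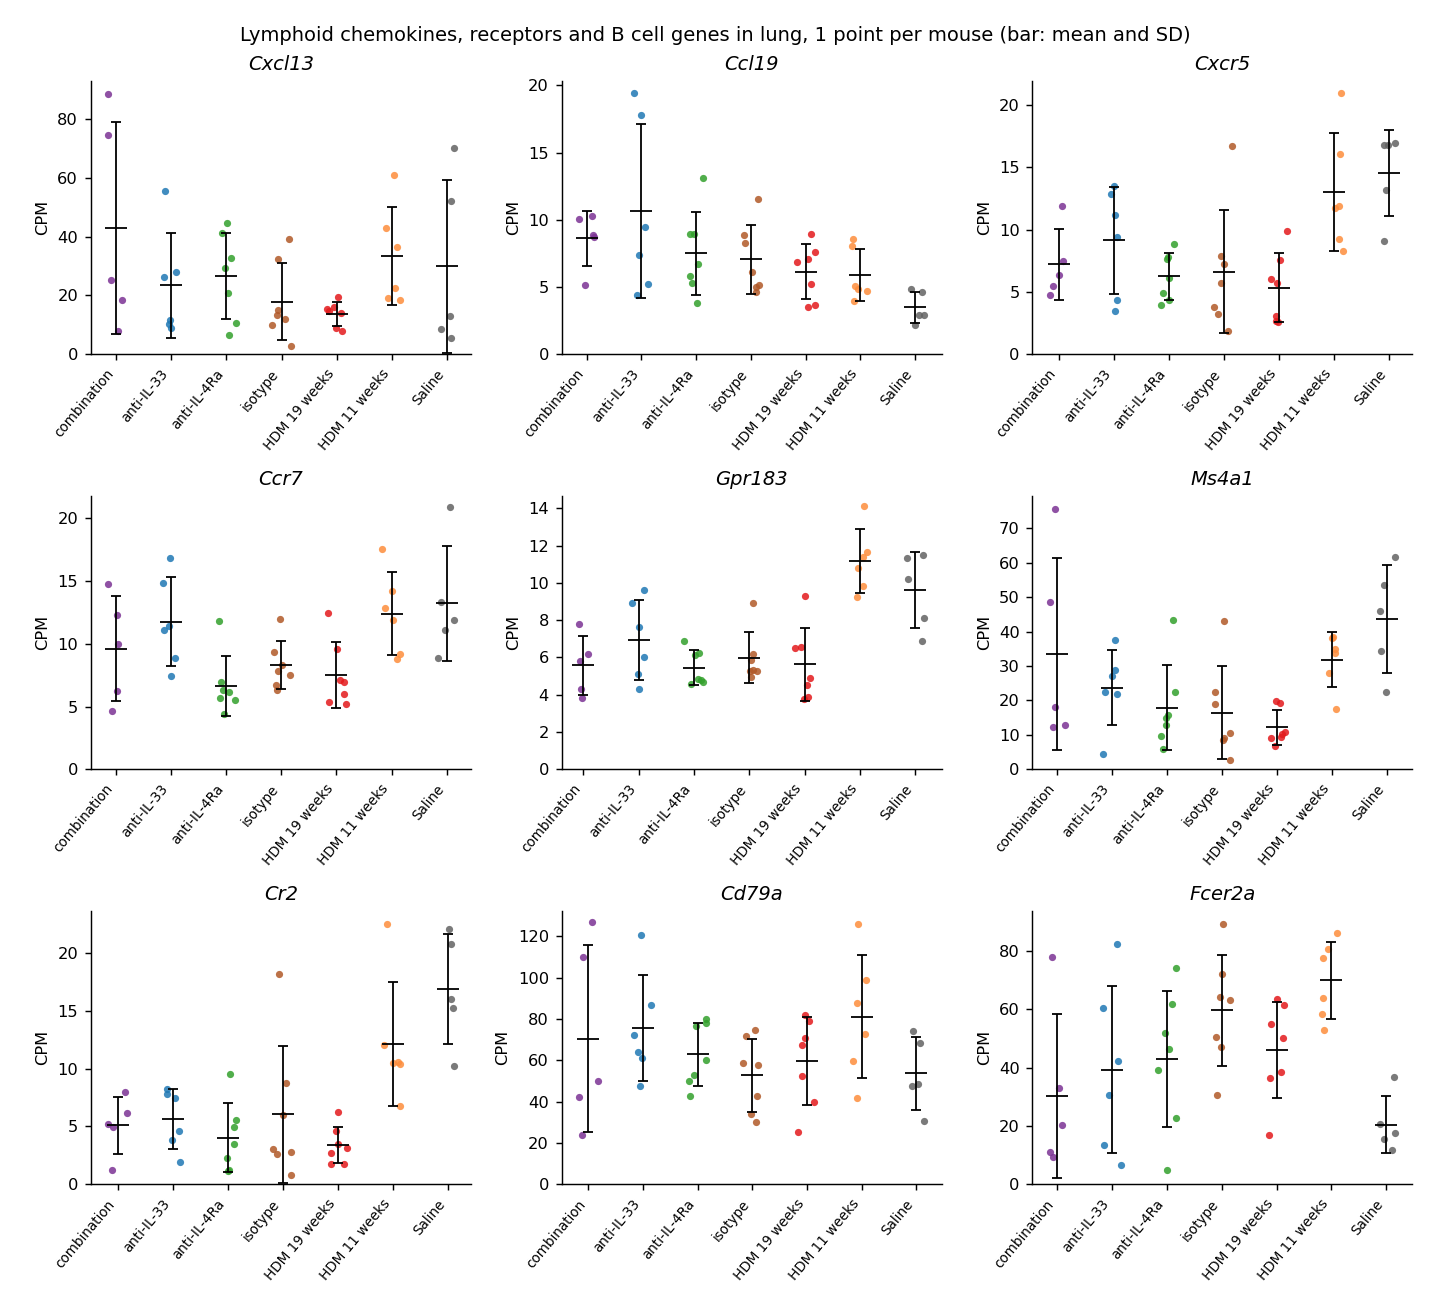
CPM of the 9 genes in each mouse (1 point per mouse, 1 panel per gene, groups from the combination at the left to saline at the right), with a bar at the mean and whiskers of 1 SD. Cxcr5, Gpr183, Ms4a1 and Cr2 sit lower in HDM 19 weeks lungs than in HDM 11 weeks and saline lungs, while Fcer2a sits between 53.1 and 86.1 CPM at 11 weeks and between 11.7 and 36.9 CPM in saline.

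The first comparison sets 19 weeks of HDM against 11 weeks and asks how the 9 genes stood after the longer exposure. Gpr183 fell, to a level 1.98-fold lower, and was the only member to pass the test. The other B cell and receptor genes had lower values too, and 8 of the 9 log2 fold changes were negative, with a median of -0.98 against -0.001 over all genes tested. Ccl19, the ligand of CCR7, had a log2 fold change of 0.06 ± 0.31 (SE). The share of all genes called lower was 0.0188% (3 of 15979), called higher 0.0876% and called in either direction 0.106%, so that 1 call among 9 members stands beside a contrast in which few genes passed.

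Gpr183 had a lowest value of 3.75, a median of 4.88 and a highest value of 9.30 CPM in the 7 lungs at 19 weeks, against 9.23, 11.1 and 14.1 CPM in the 6 lungs at 11 weeks. The groups met at a single point: replicate 9 at 19 weeks exceeded replicate 8 at 11 weeks, and each of the other 6 mice at 19 weeks lay below every mouse at 11 weeks. Its log2 fold change was -0.98 ± 0.21 (SE, adjusted p = 0.0362). This call was lost when any 1 of 12 of the 13 libraries was left out, with adjusted p between 0.0515 and 0.159 and sizes between -0.91 and -1.04, and was kept only without replicate 9 at 19 weeks. With the 10 libraries of steep GC slope left out the change was -0.81 (adjusted p = 0.104), and in a fit that carried the GC slope as a term it was -0.79 (adjusted p = 0.0438). Over the alternatives other than single left-out libraries, as in every such range given here, the adjusted p ran from 0.00154 to 0.104.

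Cr2 had the largest difference of the 9 genes. It stood at a lowest of 1.79, a median of 3.12 and a highest of 6.23 CPM at 19 weeks, against 6.78, 10.6 and 22.5 CPM at 11 weeks. Every lung at 19 weeks was below every lung at 11 weeks. The log2 fold change was -1.83 ± 0.49, yet the adjusted p was 0.144. DESeq2 called it (adjusted p = 0.0320), and the adjusted p over alternatives ran from 0.0320 to 0.262.

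Ms4a1 values at 19 weeks were 6.90 (lowest), 10.4 (median) and 19.8 CPM (highest), against 17.6, 34.4 and 38.4 CPM at 11 weeks. Only replicate 8 at 11 weeks fell among the 19-week values. Its log2 fold change was -1.38 ± 0.47 (adjusted p = 0.230). Cxcr5 stood at 2.55, 5.74 and 9.86 CPM at 19 weeks, against 8.31, 11.8 and 21.0 CPM at 11 weeks, with a log2 fold change of -1.28 ± 0.37 (adjusted p = 0.183). Its groups overlapped through 1 mouse at 19 weeks and 2 mice at 11 weeks.

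Cxcl13, the ligand of CXCR5, stood at 7.88, 14.7 and 19.5 CPM at 19 weeks, against 18.6, 29.5 and 60.9 CPM at 11 weeks. The 11-week lungs were the more widely spread, and all 7 lungs at 19 weeks were below the 11-week mean. The log2 fold change was -1.28 ± 0.56 (adjusted p = 0.329). Ccr7 averaged 7.52 ± 2.65 CPM at 19 weeks and 12.4 ± 3.30 CPM at 11 weeks (SD), with 6 of 7 lungs below the 11-week mean and a log2 fold change of -0.72 ± 0.26 (adjusted p = 0.258). Fcer2a and Cd79a had log2 fold changes of -0.60 ± 0.46 and -0.44 ± 0.31, neither past the threshold. In RNA of whole lung, fewer cells of a type and less RNA per cell cannot be told apart.

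Among the 20 other B cell genes (receptor chains, coreceptors and transcription factors), 0 were called by edgeR at 19 against 11 weeks. An unadjusted p under 0.05 was reached by 9 of these 20 and by 14.4% of all genes. Of these genes 18 had a negative log2 fold change, with a median of -0.68. Fcrl1, an Fc receptor-like protein of B cells, had -1.50 ± 0.42 and Bank1, a B cell scaffold protein, -1.42 ± 0.42 (adjusted p = 0.159 and 0.183). Of 13 T cell genes 10 were negative, with a median of -0.45 and summed levels of 87.6 to 151 CPM at 19 weeks, against 135 to 173 CPM at 11 weeks. The GC slope ran from -0.41 to 0.89 at 19 weeks, against -0.57 to -0.08 at 11 weeks. With the GC slope as a term the log2 fold change was -1.30 for Cr2, -1.49 for Ms4a1, -1.12 for Cxcr5 and -1.41 for Cxcl13, none of them past the threshold. That of Fcer2a was -0.03 and that of Ccl19 -0.28 in the same fit. The part of the T cell genes in the member results was not tested.

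In the mouse genome (mm10) the members lie on 9 chromosomes, so that none neighbours another. Cxcl13 spans chr5:95956939-95961068, Ccl19 chr4:42754525-42756365, Cxcr5 chr9:44511787-44526444, Ccr7 chr11:99144199-99155077 and Gpr183 chr14:121952331-121965193. Ms4a1 spans chr19:11249679-11266149, Cd79a chr7:24897497-24901858, Cr2 chr1:195136811-195176880 and Fcer2a chr8:3680280-3694174. RefSeq promoter windows of GRCm38.p6, with 250 bases before and 50 bases from the start, matched 6 of the 9 members (not Cxcr5, Ccr7 or Ms4a1). The windows of Cr2 and Gpr183, which had the largest difference and the only call at 19 against 11 weeks, are set beside those of Cxcl13 and Cd79a, and that of the Fcer2a start with a motif match. The windows of Cr2, Gpr183 and Fcer2a were chosen after their values had been seen. All are given 5′ to 3′ on the strand of the gene, and the lone capital marks the first transcribed base.
Cr2, chr1:195176670-195176969, minus strand: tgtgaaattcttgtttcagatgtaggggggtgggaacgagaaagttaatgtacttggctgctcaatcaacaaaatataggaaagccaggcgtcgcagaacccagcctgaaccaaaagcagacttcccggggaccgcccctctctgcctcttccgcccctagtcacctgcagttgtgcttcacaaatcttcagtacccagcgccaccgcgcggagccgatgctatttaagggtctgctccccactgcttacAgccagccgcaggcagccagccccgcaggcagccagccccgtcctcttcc
Gpr183, chr14:121965144-121965443, minus strand: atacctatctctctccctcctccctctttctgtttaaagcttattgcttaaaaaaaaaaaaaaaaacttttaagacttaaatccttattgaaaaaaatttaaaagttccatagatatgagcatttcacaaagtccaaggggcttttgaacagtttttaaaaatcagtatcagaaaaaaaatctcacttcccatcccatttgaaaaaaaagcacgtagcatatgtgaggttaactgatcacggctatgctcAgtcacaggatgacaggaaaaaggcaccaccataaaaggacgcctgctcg
Cxcl13, chr5:95956689-95956988, plus strand: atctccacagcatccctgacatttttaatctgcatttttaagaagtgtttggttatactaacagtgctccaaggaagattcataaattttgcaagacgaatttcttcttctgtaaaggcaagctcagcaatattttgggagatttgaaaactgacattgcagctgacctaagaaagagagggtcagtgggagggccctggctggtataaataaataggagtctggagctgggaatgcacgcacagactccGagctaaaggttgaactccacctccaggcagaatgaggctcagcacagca
Cd79a, chr7:24897247-24897546, plus strand: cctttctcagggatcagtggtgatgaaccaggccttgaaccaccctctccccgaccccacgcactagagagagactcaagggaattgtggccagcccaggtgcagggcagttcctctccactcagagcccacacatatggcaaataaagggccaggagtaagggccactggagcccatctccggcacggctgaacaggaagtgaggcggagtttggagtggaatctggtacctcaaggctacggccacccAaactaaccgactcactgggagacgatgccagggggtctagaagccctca
Fcer2a, chr8:3690812-3691111, minus strand: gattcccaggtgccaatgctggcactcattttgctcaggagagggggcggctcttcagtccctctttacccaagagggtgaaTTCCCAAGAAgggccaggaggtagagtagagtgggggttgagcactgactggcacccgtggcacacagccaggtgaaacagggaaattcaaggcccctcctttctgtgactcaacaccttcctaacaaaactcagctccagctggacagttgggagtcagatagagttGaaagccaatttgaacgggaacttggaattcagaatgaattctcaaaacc
In the Fcer2a window the run of capitals marks the sequence TTCNNNNGAA, a form bound by STAT6, the factor that IL-4 signalling activates, which begins at base 83. Both strands of all 8 windows of the 6 members were searched for this form and for the octamer ATTTGCAT, the EBF1 core CCCNNGGG and the NF-kB form GGANTTTCC. This was the only match, so no matches overlapped. The shares of all 32851 promoter windows holding each were 6.95% for the STAT6 form, 1.74% for the octamer, 13.7% for the EBF1 core and 1.25% for the NF-kB form. A match describes letters, not a bound site, and the STAT6 form was added after the values had been seen.

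The second comparison sets 19 weeks of HDM against saline. Here 5 of the 9 members fell: the receptors Cxcr5, Ccr7 and Gpr183 and the B cell genes Ms4a1 and Cr2. No member passed the test upwards by edgeR, and DESeq2 called Fcer2a. In that direction 2 members (Fcer2a and Ccl19) had an unadjusted p under 0.05, as had 46.1% of all genes in either direction. Of all genes tested, 15.6% were called lower, 19.2% higher and 34.8% in either direction. The 9 members were chosen with earlier results of these data known, and several varied together across mice. Their 5 calls are therefore set beside the share over all genes without a test of the set. The median over the 9 members was -0.81, against 0.01 over all genes.

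Cr2 had 1.79 (lowest), 3.12 (median) and 6.23 CPM (highest) at 19 weeks, against 20.8, 10.2, 16.03, 15.2 and 22.1 CPM in saline replicates 1 to 5. All 7 lungs at 19 weeks lay below all 5 saline lungs. Its log2 fold change was -2.30 ± 0.51 (adjusted p = 0.000591), or 4.93-fold lower. With the GC slope as a term it was -1.56 (adjusted p = 0.00789), within a range over alternatives of -2.66 to -1.56. Ms4a1 reached at most 19.8 CPM at 19 weeks, below every saline lung, against 53.6, 22.5, 61.8, 34.4 and 46.1 CPM in saline. Its log2 fold change was -1.83 ± 0.49 (adjusted p = 0.00388).

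Cxcr5 had 2.55, 5.74 and 9.86 CPM (lowest, median and highest) at 19 weeks, against 16.9, 9.09, 16.8, 13.2 and 16.8 CPM in saline lungs. Saline replicate 2 alone fell among the 19-week values. It fell by 1.44 ± 0.39 on the log2 scale (adjusted p = 0.00396). Gpr183 had 3.75, 4.88 and 9.30 CPM at 19 weeks, against 11.3, 6.89, 11.5, 8.13 and 10.2 CPM in saline lungs. Its groups overlapped through replicate 9 at 19 weeks. It fell by 0.77 ± 0.22 (adjusted p = 0.00635), but by 0.47 with an adjusted p of 0.0511 once the GC slope was a covariate. Ccr7 had 5.18, 6.98 and 12.5 CPM at 19 weeks, against 8.83, 11.1, 11.9, 13.3 and 20.9 CPM in saline lungs, and fell by 0.81 ± 0.27 (adjusted p = 0.0178); without saline replicate 5 the change was -0.61 and the adjusted p 0.0925.

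Cxcl13 did not separate the groups, with 7.88, 14.7 and 19.5 CPM at 19 weeks, against a wide spread in saline, where replicates 1 and 3 had 52.0 and 70.0 CPM and replicates 2, 4 and 5 had 8.59, 13.1 and 5.35 CPM. The log2 fold change of 19 weeks against saline was -1.12 ± 0.58 (adjusted p = 0.129). Ccl19 averaged 6.13 ± 2.05 CPM at 19 weeks and 3.50 ± 1.16 CPM in saline (SD), with all 7 lungs above the saline mean and a log2 fold change of 0.81 ± 0.34 (adjusted p = 0.0585). With the GC slope as a covariate that change was 0.32 (adjusted p = 0.431; range over alternatives 0.0195 to 0.431). Cd79a averaged 59.6 ± 21.2 CPM at 19 weeks and 53.8 ± 17.6 CPM in saline, a log2 fold change of 0.15 ± 0.33.

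Fcer2a had higher values at 19 weeks than in saline, short of the threshold. It stood at 16.8 (lowest), 50.3 (median) and 63.5 CPM (highest) at 19 weeks, against 17.6, 11.7, 15.5, 20.8 and 36.9 CPM in saline lungs. Of the 19-week lungs 6 were above the saline mean, and replicate 7, with 16.8 CPM and a steep GC slope of 0.80, was not. Its log2 fold change was 1.17 ± 0.50 with an adjusted p of 0.0643. It was called with the GC slope as a covariate (1.96, adjusted p = 0.000638) and without the steep libraries (1.30, adjusted p = 0.000714), within a range over alternatives of 0.000638 to 0.128.

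Of the 20 other B cell genes, 7 fell at 19 weeks against saline and 2 rose (of all genes, 15.6% and 19.2%). Those that fell included Btla, an inhibitory receptor (-1.89 ± 0.41, adjusted p = 0.000440), Bank1 (-1.67 ± 0.43) and Fcrl1 (-1.47 ± 0.44). Those that rose were Pou2af1, a transcriptional coactivator that plasma cells also use (1.82 ± 0.35), and Blnk, an adaptor of the B cell receptor that myeloid cells also make (1.88 ± 0.29). Over the list the median was -0.66. Plasma cell genes stood apart from it: 11 of 12 rose and 0 fell, among them Jchain, which joins IgA and IgM subunits, with 1618 ± 754 CPM at 19 weeks and 158 ± 169 CPM in saline (log2 fold change 3.36 ± 0.60), and Derl3, a protein of the secretory pathway (4.61 ± 0.59).

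Other cell types moved in the same contrast, in which 19.2% of all genes were called higher and 15.6% lower. Of 13 T cell genes 7 fell and 0 rose, with summed levels of 87.6 to 151 CPM at 19 weeks, against 158 to 325 CPM in saline. Of 6 fat genes 5 fell, with sums of 31.7 to 173 CPM at 19 weeks, against 38.4 to 1361 CPM in saline, where replicate 3 was the highest. Of 8 thymus genes 3 could be tested and 2 of them, Cd8b1 and Themis, which peripheral T cells also express, fell; their list summed to 4.55 to 9.66 CPM at 19 weeks, against 11.0 to 33.0 CPM in saline, and the thymocyte gene Rag1 reached no more than 0.0510 CPM at 19 weeks and 0.231 CPM in saline. Other lists went mostly upwards. Of 14 genes of mature dendritic cells 8 rose and 2 fell. Of 8 tested genes of follicular dendritic and reticular stroma 5 rose and 1 fell. The part of these cell types in the fall of the members was not tested.

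**Figure D2:**
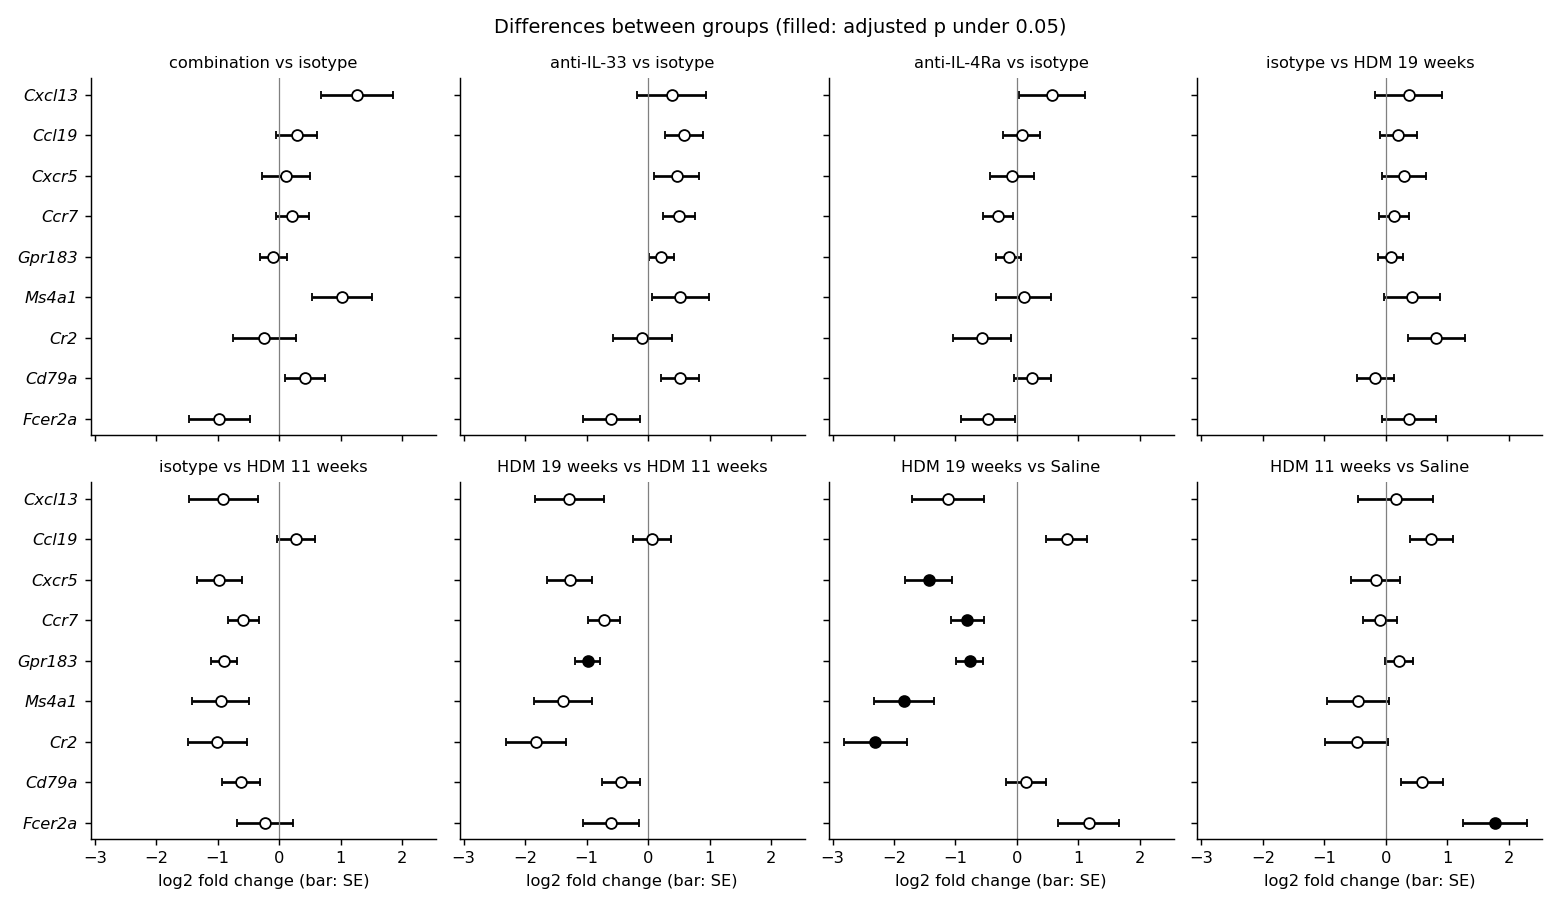
Log2 fold changes of the 9 genes (rows) in 8 comparisons (panels, the group named first over the one named second), with bars of 1 SE and filled points where the adjusted p was under 0.05. The filled points are 5 members below 0 at 19 weeks against saline, Gpr183 below 0 at 19 against 11 weeks, and Fcer2a above 0 at 11 weeks against saline.

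At 11 weeks of HDM against saline, Fcer2a was the member that rose, and 0 members were called lower by edgeR or DESeq2. Fcer2a stood at 53.1 (lowest), 70.9 (median) and 86.1 CPM (highest) at 11 weeks, above every saline lung. The log2 fold change was 1.77 ± 0.52 (adjusted p = 0.0154), a 3.41-fold rise, which lost its call without saline replicate 2 (1.61, adjusted p = 0.0548). Of all genes tested 8.65% were called higher, 6.74% lower and 15.4% in either direction, so that 1 of 9 lies near the share over all genes.

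Ms4a1, Cr2, Cxcr5 and Ccr7, the genes that were lower at 19 weeks, had log2 fold changes of -0.46 ± 0.50, -0.48 ± 0.52, -0.16 ± 0.40 and -0.09 ± 0.28 at 11 weeks against saline, and Gpr183 had 0.22 ± 0.23. Cd79a averaged 81.1 ± 29.8 CPM at 11 weeks and 53.8 ± 17.6 CPM in saline (0.59 ± 0.34, adjusted p = 0.281), and Ccl19 5.86 ± 1.93 CPM and 3.50 ± 1.16 CPM (0.74 ± 0.35, adjusted p = 0.157). All 11-week values of Cxcl13 lay within the saline range (0.16 ± 0.61). The comparisons with 11 weeks and with saline share libraries, and their values are given side by side without a test of their agreement.

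Of the 20 other B cell genes 3 rose at 11 weeks against saline (Pou2af1, Blnk and Cxcr4, the receptor of CXCL12) and 0 fell. Of 12 plasma cell genes 9 rose. Over all genes 8.65% were called higher and 6.74% lower.

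The enzymes that make and clear the ligand of GPR183 changed with HDM. Gpr183 itself was called lower at 19 weeks against saline (-0.77 ± 0.22), though not with the GC slope as a term (adjusted p = 0.0511). At 11 weeks against saline it was not called (0.22 ± 0.23). Ch25h, which makes 25-hydroxycholesterol, had 50.1 ± 14.9 CPM at 19 weeks, against 3.08 ± 0.84 CPM in saline (log2 fold change 4.02 ± 0.33, adjusted p = 1.27e-11), and 60.9 ± 17.2 CPM at 11 weeks (4.30 ± 0.33 against saline). Cyp7b1, which makes the GPR183 ligand from it, rose by 1.15 ± 0.25 at 19 weeks and 1.43 ± 0.26 at 11 weeks. Hsd3b7, which breaks the ligand down, rose by 0.92 ± 0.24 and 0.81 ± 0.25, and Cyp27a1, another oxysterol hydroxylase, fell by 1.28 ± 0.20 and 1.21 ± 0.21. All 4 genes of this list were called in both comparisons with saline, and none was called at 19 against 11 weeks, where the count at an unadjusted p under 0.05 was 0. Of all genes 34.8% were called at 19 weeks against saline, 15.4% at 11 weeks against saline and 0.106% at 19 against 11 weeks.

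**Figure D3:**
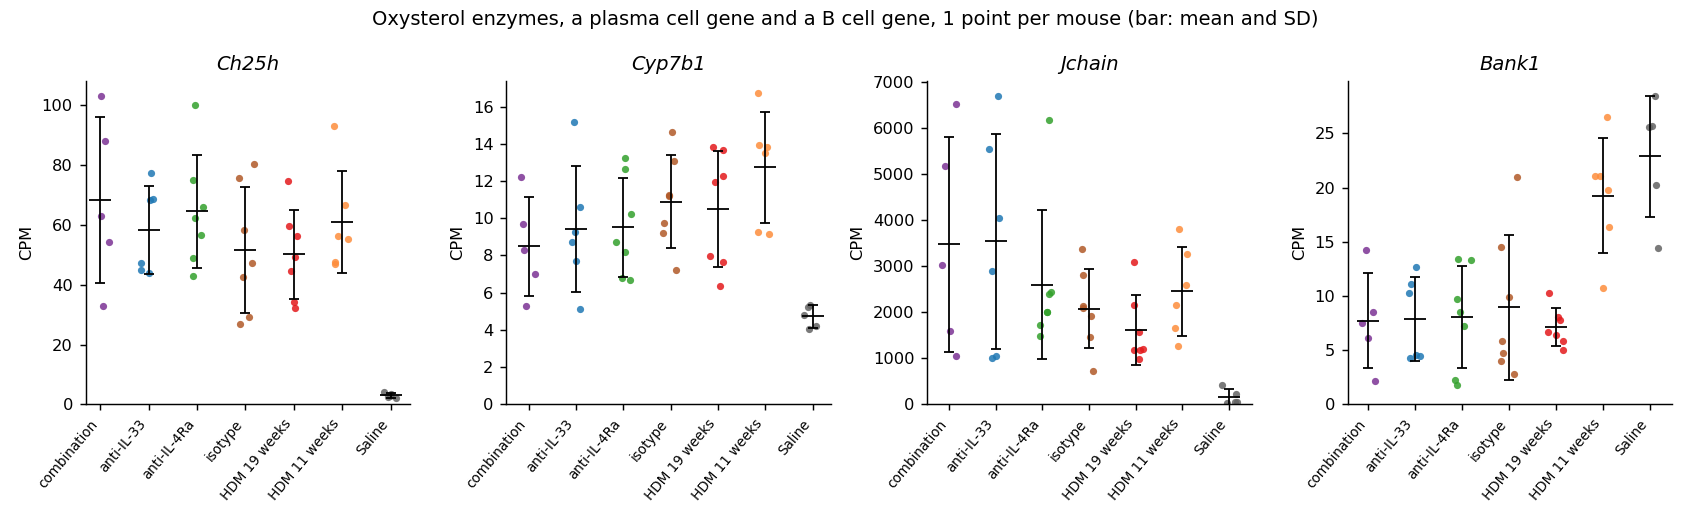
CPM of Ch25h, Cyp7b1, Jchain and Bank1 in each mouse, with groups from the combination at the left to saline at the right, a bar at the mean and whiskers of 1 SD. Ch25h and Jchain are lower in the 5 saline lungs than in any other lung and the Cyp7b1 mean is lowest there, whereas Bank1 is lower at 19 weeks, with 5.03 to 10.3 CPM, than in any lung at 11 weeks or in saline.

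Of 20 further genes of lymphoid chemokine and lymphotoxin signalling, 9 rose and 2 fell at 19 weeks against saline. Those that rose included Tnfsf11, the cytokine RANKL (2.76 ± 0.61), Il7r, the IL-7 receptor (1.92 ± 0.48), and Relb, the NF-kB subunit downstream of the lymphotoxin receptor (1.75 ± 0.48). Ackr4, which scavenges CCL19 and CCL21, fell by 3.38 ± 0.45 (adjusted p = 2.83e-07). Ccl21a, the other CCR7 ligand, rose by 1.17 ± 0.35, but its near-identical copies could share its reads. Of 6 tested genes of high endothelial venules 2 rose and 1, Chst4, a sulfotransferase for L-selectin ligands, fell by 3.59 ± 0.40. Of the 8 genes for B cell survival and selection 2 rose and 1 fell (Cd40, -0.98 ± 0.24), and of 7 tested germinal centre genes 1 rose and 1 fell. Of 7 tested T follicular helper genes 3 rose and 1 fell. Over all genes 19.2% were called higher and 15.6% lower in this contrast. The counts of the survival and germinal centre lists lie near those shares.

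Isotype-treated mice had 19 weeks of HDM as well and so give a second view of the longer exposure, although they share the 11-week libraries with the first. Against 11 weeks, 0 members were called by edgeR and 1 (Gpr183) by DESeq2. An unadjusted p under 0.05 was reached by 5 members and by 4.7% of all genes. Over all genes 0.0438% were called, 0.0375% higher and 0.00626% lower. Gpr183 had 4.97 (lowest), 5.35 (median) and 8.92 CPM (highest) with isotype, against 9.23, 11.1 and 14.1 CPM at 11 weeks. The groups did not overlap, and the log2 fold change was -0.90 ± 0.21 (adjusted p = 0.106; 0.0119 by DESeq2, in a range over alternatives of 0.0119 to 0.188). Without isotype replicate 9 it was called, at -1.03 (adjusted p = 0.0319).

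Cr2, Cxcr5, Ms4a1 and Cxcl13 had log2 fold changes of -1.01 ± 0.48, -0.97 ± 0.37, -0.95 ± 0.47 and -0.91 ± 0.56 with isotype against 11 weeks. The isotype group was wide: Cr2 ran from 0.806 CPM in replicate 4 to 18.2 CPM in replicate 9, Ms4a1 from 2.76 to 42.98 CPM and Cxcr5 from 1.84 to 16.7 CPM in the same mice. Between isotype and HDM 19 weeks without antibody, 0 members were called by edgeR or DESeq2, and 0% of all genes were called. An unadjusted p under 0.05 was reached by 0 members and by 2.13% of all genes. The widest difference was in Cr2 (0.82 ± 0.47, adjusted p = 0.977).

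In the antibody comparisons with isotype 0 members passed the test. With anti-IL-33 alone and with anti-IL-4Ra alone, 0% of all genes were called, 0 members had an unadjusted p under 0.05, and DESeq2 called 0 members. Of all genes 18% with anti-IL-33 and 14% with anti-IL-4Ra had an unadjusted p that low. Fcer2a had 6.67 (lowest), 36.4 (median) and 82.5 CPM (highest) with anti-IL-33 and 5.07, 46.3 and 74.1 CPM with anti-IL-4Ra, against 30.5, 63.2 and 89.3 CPM with isotype. In each antibody group 2 mice lay below every isotype lung, and all 4 of these mice were among the 10 libraries of steep GC slope. The log2 fold changes were -0.60 ± 0.46 with anti-IL-33 and -0.47 ± 0.44 with anti-IL-4Ra (adjusted p = 0.419 and 0.635). Cxcl13 had 8.90, 18.9 and 55.6 CPM with anti-IL-33 and 6.39, 29.3 and 44.7 CPM with anti-IL-4Ra, against 2.82, 13.3 and 39.2 CPM with isotype, and did not pass in either (0.39 ± 0.56 and 0.57 ± 0.54). The remaining members lay between -0.57 (Cr2 with anti-IL-4Ra) and 0.58 (Ccl19 with anti-IL-33).

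With both antibodies, 19% of all genes were called against isotype, 12.6% higher and 6.32% lower. Of the 9 members 0 were called by edgeR or DESeq2. An unadjusted p under 0.05 was reached by 2 members (Cxcl13 and Ms4a1) and by 40.1% of all genes. Cxcl13 had 74.7, 25.1, 18.3, 7.95 and 88.5 CPM in combination replicates 1, 2, 3, 5 and 8, against 2.82 (lowest), 13.3 (median) and 39.2 CPM (highest) with isotype. Replicates 1 and 8 were above every isotype lung and the remaining 3 were within the isotype range. Its log2 fold change was 1.27 ± 0.58 (adjusted p = 0.102), and 0.28 without the libraries of steep GC slope, which leaves combination replicates 2 and 3.

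Ms4a1 had 48.7, 12.7, 18.01, 12.2 and 75.7 CPM in the same 5 combination lungs, against 2.76, 10.5 and 42.98 CPM with isotype, so the same 2 mice led. The log2 fold change was 1.02 ± 0.49 (adjusted p = 0.113). It was called without isotype replicate 9 (1.46, adjusted p = 0.0415) or without combination replicate 2 (1.22, adjusted p = 0.0420), and was -0.10 without the steep libraries (adjusted p = 0.933; range over alternatives 0.0769 to 0.933). Cd79a was also highest in replicates 1 and 8, at 110 and 127 CPM, against at most 49.9 CPM in the other 3 combination lungs.

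Fcer2a ran the other way in these mice: replicates 1 and 8 had 11.0 and 9.44 CPM, the lowest of the group, and replicates 2, 3 and 5 had 77.9, 33.0 and 20.5 CPM, against 30.5, 63.2 and 89.3 CPM with isotype. This gave a log2 fold change of -0.97 ± 0.50 (adjusted p = 0.136), and without combination replicate 2 it was called, at -1.69 (adjusted p = 0.0114). Replicates 1 and 8 also stood out in genes outside the members, with 28.1 and 48.2 CPM of the adipocyte gene Adipoq. Of Ltb, from the lymphoid chemokine and lymphotoxin list, they had 105 and 80.4 CPM. Their GC slopes were 1.04 and 0.98. That of replicate 2 was -1.02, the lowest of all libraries. All 6 fat genes rose in the combination (of all genes, 12.6%), with sums of 79.7 to 763 CPM, against 51.4 to 73.6 CPM with isotype. With the GC slope as a term the log2 fold changes in the combination were 1.05 for Cxcl13, 0.80 for Ms4a1 and -0.97 for Fcer2a (adjusted p = 0.239, 0.285 and 0.0812). Without the steep libraries, which leaves combination replicates 2 and 3, that of Fcer2a was -0.10. The part of fat in the member values was not tested.

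Of the 20 other B cell genes 1 rose in the combination against isotype, Fcmr, the IgM Fc receptor (1.83 ± 0.48, adjusted p = 0.0162), and 2 fell, Pou2af1 (-0.96 ± 0.34) and Blnk (-1.11 ± 0.28). In the chemokine and lymphotoxin list Ltb, a lymphotoxin subunit, rose (1.75 ± 0.55), as did Ackr4 (1.39 ± 0.44), while Tnfsf11 (-1.93 ± 0.58), Il7r (-1.54 ± 0.48) and Cxcl12 (-0.90 ± 0.28) fell. Of the 4 oxysterol genes 0 were called by edgeR in the combination, and 0 had an unadjusted p under 0.05. Of 14 genes of mature dendritic cells 4 rose and 0 fell. Of 8 tested genes of follicular dendritic and reticular stroma 0 rose and 4 fell. Over all genes 12.6% were called higher and 6.32% lower.

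Across the 43 mice the members varied together in part. Of 45 relations computed (36 pairs of members and each member with the GC slope), 25 had a Benjamini-Hochberg adjusted p under 0.05 for Pearson's r in permutation tests with 100000 resamples. The closest pair was Cxcr5 and Cr2, with r = 0.856 and Spearman's rho = 0.864 (permutation p = 1e-05 for both, the smallest they can give, adjusted p = 5e-05), 0.838 without the 2 farthest mice and 0.772 within groups. Cxcl13 followed Ms4a1 with r = 0.703 and rho = 0.656 (permutation p = 1e-05 for both, adjusted p = 5e-05), 0.641 without the 2 farthest mice and 0.738 within groups. Ms4a1 and Fcer2a, both B cell genes, ran in opposite directions, with r = -0.407 (permutation p = 0.00698, adjusted p = 0.0143) and rho = -0.295 (permutation p = 0.0559, adjusted p = 0.0968), -0.376 without the 2 farthest mice and -0.409 within groups. The permutations ran over all 43 mice without regard to group, so differences between group means enter these p-values and those with the GC slope. Not every pair held within groups: Ccr7 and Cr2 had r = 0.464 (permutation p = 0.00178, adjusted p = 0.00445) but 0.117 within groups. All pairs share their libraries and depth.

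**Figure D4:**
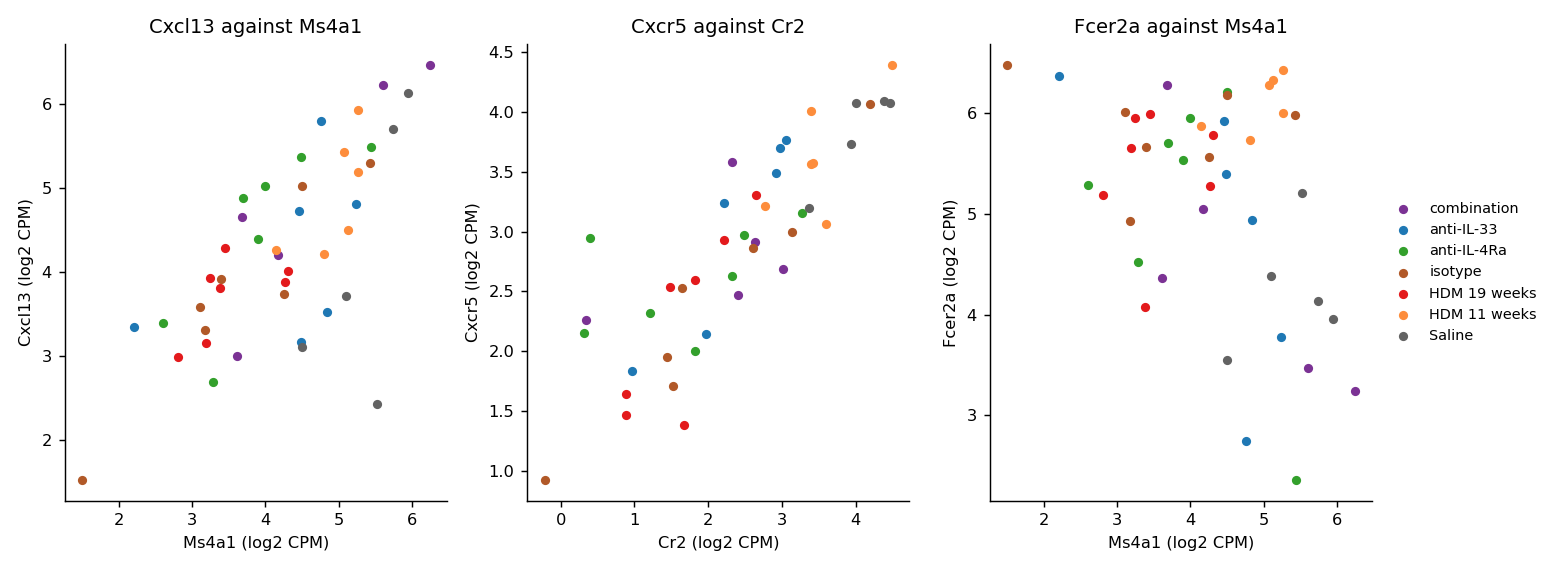
Log2 CPM of Cxcl13 against Ms4a1, Cxcr5 against Cr2 and Fcer2a against Ms4a1, 1 point per mouse coloured by group. Cxcl13 and Ms4a1 rise together within groups as well as across them (r = 0.703 over 43 mice), while Fcer2a runs against Ms4a1 (r = -0.407).

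Several members also followed the GC slope of the library. Gpr183 had r = -0.663 and rho = -0.681 with it (permutation p = 1e-05 for both, adjusted p = 5e-05), -0.639 without the 2 farthest libraries and -0.589 within groups. Cr2 had r = -0.666 and rho = -0.728 (permutation p = 1e-05 for both, adjusted p = 5e-05), -0.689 without the 2 farthest and -0.560 within groups. Ccl19 ran the other way, with r = 0.639 (permutation p = 2e-05, adjusted p = 9e-05) and rho = 0.600 (permutation p = 7e-05, adjusted p = 0.000315), 0.553 without the 2 farthest and 0.539 within groups. Fcer2a was lower where the slope was steep, with r = -0.496 (permutation p = 0.00073, adjusted p = 0.00208) and rho = -0.330 (permutation p = 0.0309, adjusted p = 0.0604), -0.386 without the 2 farthest and -0.655 within groups. For Cxcl13 no relation was detected (r = -0.002 and rho = -0.040, permutation p = 0.989 and 0.799).

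**Figure D5:**
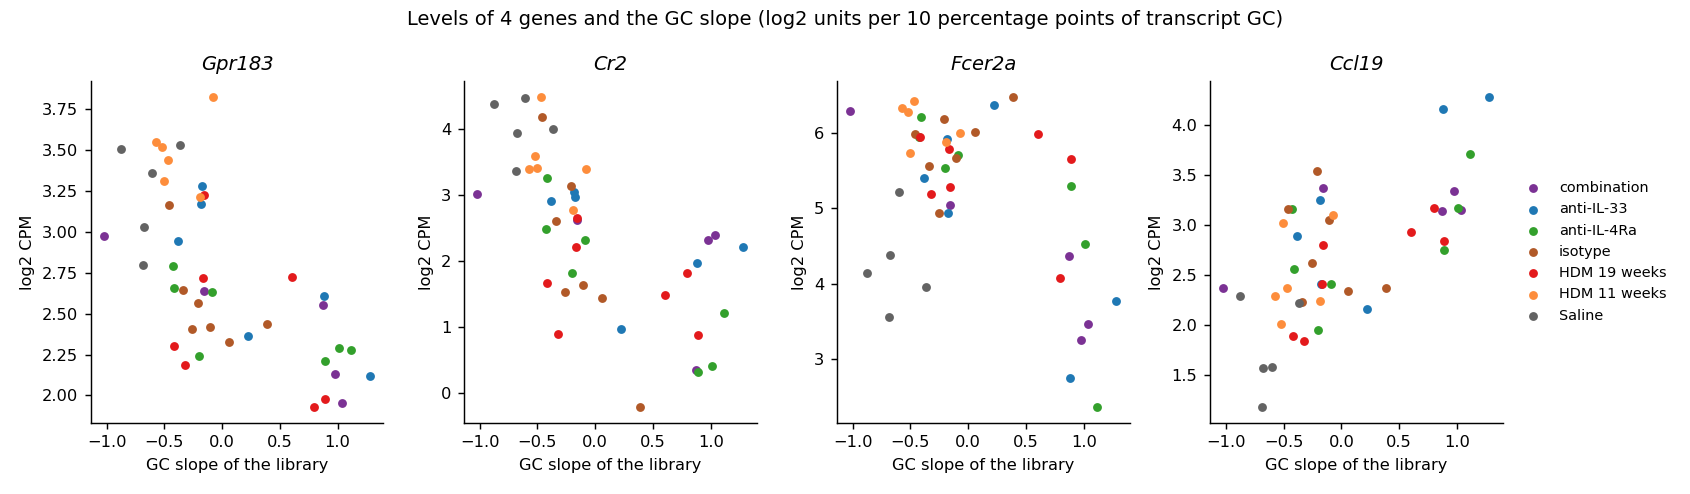
Log2 CPM of Gpr183, Cr2, Fcer2a and Ccl19 in each library against the GC slope of that library, coloured by group. Gpr183 and Cr2 are lower and Ccl19 is higher where the slope is steep, and the 11-week and saline libraries all lie at slopes below 0.

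By correlation over the 43 libraries among 13919 genes with a mean of at least 1 CPM, the 5 profiles most like that of Ms4a1 included Arhgap15, Srpk3, Art2a and Cd69 (r = 0.838 to 0.863). The profiles most like Cxcl13 were Uchl3, Ifi211, Depdc1a, Hmgn3 and Npm1 (r = 0.678 to 0.703), and those most like Ccl19 were Syce2, Saa1, Tff2, Prr29 and Pim2 (r = 0.788 to 0.799). These genes were picked as the highest of many, so their r values describe the ranking and carry no test.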

How the data were processed

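RNA of whole lung was made into strand-specific libraries from 500 ng with the KAPA stranded mRNA kit, amplified with 12 PCR cycles and read as single reads of 33 cycles, per the labels' protocols. The values the authors deposited are expected counts per NCBI Gene ID, unscaled, with 76.8% of nonzero values whole; the build was mm10, per the submitters' processing notes. Aligner, counter and strand use: not given in the sources used here, so overlapping genes are uncertain. Groups came from the titles. Symbols came from RefSeq (24375 of 24475 IDs).

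Counts were rounded, filtered with filterByExpr (15979 genes) and scaled by TMM. The quasi-likelihood test of edgeR 4.0.16 (R 4.3.3) was fitted to all 43 libraries with 7 group means (residual degrees of freedom 36). The p-values were those of the F test and were adjusted by Benjamini-Hochberg across every gene tested and called under 0.05. CPM use scaled library sizes, and log2 CPM a prior count of 1. Transcript GC was known for 95.3% of tested genes. The procedure was also run on simulated counts drawn gene by gene with a common dispersion and no GC slope. That run therefore says nothing about the GC slopes seen here. Alternatives were DESeq2 1.42.0, its size factors, 2 other filters, a replicate block, the compared groups alone, the GC slope as a covariate, leaving out steep libraries or any 1 library, and, added after seeing the data, the mean of the antibody-free and isotype groups at 19 weeks in place of the antibody-free one.

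The members and lists were chosen with earlier results of these data known. All 9 members are named in every comparison, and from each list up to 4 called genes of the largest log2 fold change, with other list genes as examples. Some genes of these lists are not reported here.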

Additional observations from a re-analysis of the deposited data

Results flagged for a closer look

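Of 63 sets of values (9 genes in 7 groups), 4 held a mouse whose value lay far from the rest of its group by Dixon's criterion, where chance gives about 1 in 20. Isotype replicate 9 was far above its group in Cxcr5, with 16.7 CPM and the next mouse at 7.91 CPM, and in Gpr183, with 8.92 CPM and the next at 6.20 CPM. The same mouse was the highest of its group in Ms4a1 and Cr2. Ccr7 stood at 11.8 CPM in anti-IL-4Ra replicate 8, with the next mouse at 6.92 CPM. Cr2 stood at 22.5 CPM in HDM 11 weeks replicate 4, with the next at 12.0 CPM.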

How the results depend on the processing

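Among member log2 fold changes under alternatives that kept every compared replicate or left out steep libraries, 542 kept their direction and side of the threshold, 15 passed it newly, 5 lost it and 32 turned sign. The cause of these changes was not tested, and leaving out steep libraries also changed the group sizes. Counts of called members that moved were as follows. At 19 against 11 weeks the members called lower were 2 with DESeq2, 2 in the compared groups alone (Ms4a1 and Cr2), and 0 without a low-count filter or without steep libraries. At 11 weeks against saline the members called higher were 2 in the compared groups alone. At 19 weeks against saline they were 1 (Fcer2a) with DESeq2, with the GC covariate and without steep libraries, and 2 (Ccl19 and Fcer2a) in the compared groups alone or with the isotype group averaged in. With isotype against 11 weeks the members called lower were 1 (Gpr183) with DESeq2, the GC covariate, no steep libraries or the compared groups alone.

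Over all genes, the calls at 19 against 11 weeks were 99 with DESeq2, 11 without a filter and 68 in the compared groups alone. At 11 weeks against saline they were 4474 with the GC covariate, 5873 without steep libraries and 6038 in the compared groups alone. With isotype against 11 weeks they were 31, 21, 57 and 98 with DESeq2, the GC covariate, no steep libraries and the compared groups alone. DESeq2 called 4 genes with isotype against 19 weeks, 14 with anti-IL-33 and 48 with anti-IL-4Ra, where the compared groups alone gave 1. The combination had 686 without steep libraries and 1824 in the compared groups alone.

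Replicate numbers were not taken as pairs: no comparison had every same-numbered pair correlated above 0.1 in its deviations from the group means. With anti-IL-33 and in the combination, each against isotype, 3 of 4 pairs were above 0.1. The median correlation ran from -0.115 (19 against 11 weeks) to 0.238 (anti-IL-33 against isotype). Differently numbered pairs were not set beside these, so whether the numbers pair the mice was not tested. With the replicate block, 0 members and 0 genes were called at 19 against 11 weeks, 3 genes with isotype against 11 weeks and 551 genes in the combination. The block turned the log2 fold change of Cr2 to 0.37 with anti-IL-33 and 0.16 in the combination, that of Cxcr5 to 0.27 and of Gpr183 to 0.041 with anti-IL-4Ra, and that of Gpr183 to 0.000162 in the combination.

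With the GC covariate, signs turned to -0.28 for Ccl19 at 19 against 11 weeks, -0.23 for Cd79a at 19 weeks against saline and 0.081 for Fcer2a with isotype against 11 weeks. They turned to -0.034 for Gpr183 and 0.026 for Cd79a with isotype against 19 weeks, and 0.36 for Cr2 with anti-IL-33. With anti-IL-4Ra they turned to 0.048 for Cxcr5, 0.016 for Gpr183, -0.20 for Ccl19 and -0.028 for Ms4a1, and in the combination to 0.060 for Gpr183, 0.27 for Cr2 and -0.0040 for Ccl19. Without steep libraries they turned to -0.12 for Ccl19 at 19 against 11 weeks, -0.026 for Cd79a at 19 weeks against saline and -0.090 for Gpr183 with isotype against 19 weeks. With anti-IL-33 they turned to 0.082 for Cr2, -0.32 for Cxcl13 and -0.088 for Ccl19, and with anti-IL-4Ra to 0.018 for Cxcr5, 0.011 for Gpr183 and -0.24 for Ccl19. In the combination they turned to 0.22 for Gpr183, 0.22 for Cr2, -0.17 for Ccr7, -0.10 for Ms4a1 and -0.51 for Cd79a.

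Leaving out 1 library at a time, the members called lower at 19 weeks against saline ranged from 4 (without saline replicate 5) to 5, and in each other comparison where their number moved the called members ranged from 0 to 1. All genes called ranged from 0 to 46 at 19 against 11 weeks, 3 to 18 with isotype against 11 weeks, 0 to 137 with anti-IL-33, 0 to 13 with anti-IL-4Ra and 207 (without combination replicate 1) to 7899 (without combination replicate 2) in the combination. At 19 against 11 weeks log2 fold changes ranged from -0.050 to 0.20 for Ccl19. At 11 weeks against saline they ranged from -0.12 to 0.75 for Cxcl13 and -0.22 to 0.12 for Ccr7, and at 19 weeks against saline from -0.031 to 0.28 for Cd79a. With isotype against 19 weeks they ranged from -0.11 to 0.52 for Cxcr5, -0.036 to 0.25 for Gpr183 and -0.013 to 0.61 for Ms4a1. With anti-IL-33 they ranged from -0.075 to 0.70 for Cxcl13 and -0.29 to 0.51 for Cr2. With anti-IL-4Ra they ranged from -0.11 to 0.24 for Ccl19, -0.25 to 0.34 for Cxcr5, -0.27 to 0.56 for Ms4a1 and -0.95 to 0.019 for Cr2. In the combination they ranged from -0.14 to 0.54 for Cxcr5, -0.24 to 0.031 for Gpr183 and -0.47 to 0.34 for Cr2.

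The lowest member value was 0.806 CPM, of Cr2 in isotype replicate 4, which rests on 14 counts. The tests rest on 5 to 7 mice a group.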
